A study of Mus musculus with 6 samples.

Results

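The genes described here are the CD4 and CD8 coreceptors and the transcription factors known for the choice between the CD4 and CD8 T cell lineages. The 10 members are Cd4, Cd8a, Cd8b1, Zbtb7b, Runx1, Runx2, Runx3, Cbfb, Tox and Bcl11b. They were found by gene symbol in the deposited table, each as 1 of its 46078 rows. RNA-seq gave their levels in splenic regulatory T (Treg) cells of C57BL/6 mice aged 6 to 8 weeks, in 3 libraries labelled MAZR-cKO and 3 labelled WT. MAZR-cKO stands for mice with floxed alleles of the gene for MAZR, CD4-cre and the DEREG-eGFP transgene. WT stands for wild-type mice with DEREG-eGFP, and the labels name no Cre or floxed allele for them. CD4-cre acts from the thymus onwards in CD4 and CD8 T cells alike, so that a deletion would not be restricted to Treg cells. DEREG places a green fluorescent reporter and a diphtheria toxin receptor under Foxp3 control, and cells positive for CD4 and for the reporter were sorted. The sort thus selected on CD4 protein, so the presence of Cd4 transcript is no finding. The labels do not say how many animals gave each library. A p-value thus reflects only how much the libraries vary, of which an unknown part may be technical.

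CD4 and CD8 are the coreceptors with which T cells read MHC class II and class I molecules, and both bring the kinase Lck to the T cell receptor. In mouse thymocytes the zinc finger factor ThPOK, encoded by Zbtb7b, secures the CD4 fate and holds the CD8 programme down, while Runx3 with its partner Cbfb silences Cd4 and activates the Cd8 genes. MAZR, encoded by Patz1, is known in the mouse to repress the Cd8 genes in early thymocytes and Zbtb7b in cells that take the CD8 path, and in Treg cells Runx1 and Cbfb work together with Foxp3.

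Several of these genes start from more than 1 promoter, and a value per gene adds up the transcripts of all of them. Runx3 is the main case: its distal promoter is the one used in CD8 lineage cells, and the values below do not separate it from the proximal one. RefSeq promoter windows (GRCm38.p6) were given for 7 of the 10 members, with 10 windows in all. Cd4, Cd8b1 and Tox had none. The windows are printed here for both starts of Runx3, for the internal start of Zbtb7b and for Cd8a, since these are the genes that the MAZR and Runx circuit is known to act on. Each runs 5′ to 3′ on the strand of the gene, over 250 bases before the start, cut short where an annotated exon of the same gene begins. Capitals mark the Runx core motif TGTGGT or its reverse complement ACCACA.
Runx3 distal start, chr4:135120395-135120644, plus strand: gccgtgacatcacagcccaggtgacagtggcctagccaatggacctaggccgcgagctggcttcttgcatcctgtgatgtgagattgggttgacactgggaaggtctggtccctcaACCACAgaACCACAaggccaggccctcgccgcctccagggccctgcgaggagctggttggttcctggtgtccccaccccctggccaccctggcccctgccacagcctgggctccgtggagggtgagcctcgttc
Runx3 proximal start, chr4:135152295-135152495, plus strand: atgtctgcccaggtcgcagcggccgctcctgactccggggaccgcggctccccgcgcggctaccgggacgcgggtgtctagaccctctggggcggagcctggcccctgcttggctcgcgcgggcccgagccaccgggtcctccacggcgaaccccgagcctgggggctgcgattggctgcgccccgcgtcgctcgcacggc
Zbtb7b internal start, chr3:89387672-89387921, minus strand: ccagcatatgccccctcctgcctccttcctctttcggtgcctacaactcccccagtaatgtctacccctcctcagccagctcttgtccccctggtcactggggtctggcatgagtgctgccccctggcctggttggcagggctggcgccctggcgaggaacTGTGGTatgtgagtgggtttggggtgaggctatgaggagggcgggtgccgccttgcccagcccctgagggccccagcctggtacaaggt
Cd8a start, chr6:71373177-71373426, plus strand: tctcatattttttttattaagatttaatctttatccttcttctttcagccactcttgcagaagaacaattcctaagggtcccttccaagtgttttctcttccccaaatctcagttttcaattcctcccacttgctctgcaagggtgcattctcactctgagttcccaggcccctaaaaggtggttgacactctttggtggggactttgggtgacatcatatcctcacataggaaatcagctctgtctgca

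The distal Runx3 window held 2 Runx core motifs, beginning 134 and 126 bases before the start, and the internal Zbtb7b window held 1, beginning 89 bases before it. Both strands were searched over the full 250 bases, also past the point where an annotated exon of the same gene begins. Runx2 was the other member with a Runx core, so that 3 of the 10 windows had one, beside 14.0% of 32851 RefSeq promoter windows of the same length. The G-rich motif GGGAGGG, known as a site of the related factor MAZ, or its reverse complement CCCTCCC lay in 4 of the 10 windows, beside 19.7% of all. Those 4 belong to Runx1, Runx2, Bcl11b and the upstream start of Zbtb7b, which has 2 matches. The upstream window of Zbtb7b begins within an annotated exon of that gene, and the Runx core of Runx2 lies past the start of such an exon. In Runx2, matches 1 and 2 of its 3 overlap each other, and no Runx core overlaps a GGGAGGG match in any window. These are matches of letters in a window and say nothing on binding.

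The libraries held 15481565 to 28184456 reads. Levels are read counts scaled to the library total (CPM), and all 10 members passed the filter of at least 1 CPM in at least 3 libraries, each in every library. Differences are those of log2(CPM + 0.5), labelled MAZR-cKO minus labelled WT, from limma over all 12040 genes that passed, and genes are called where the Benjamini-Hochberg adjusted p lies under 0.05. Patz1, the gene meant to be deleted, went against the label: it stood at 179 ± 2.09 CPM in the MAZR-cKO-labelled libraries and at 71.4 ± 3.65 CPM in those labelled WT (SD, n = 3 each). A value per gene does not show the deleted segment, so directions are given here as those of the labels. Replicate numbers paired the libraries across genotypes, and a fit with that number as a block is given where it matters. Calls, intervals and p-values are from the fit without the block unless the block is named. With the block, a p-value reflects how much the differences within pairs vary. Treg cell markers, 8 of 8 tested, summed to 4643 to 5256 CPM under the label MAZR-cKO and 5050 to 5513 CPM under WT, with Foxp3 at 1364 and 1323 CPM on average under the labels MAZR-cKO and WT. Foxp3 was the 1 marker of the 8 with a log2 difference above 0, and the median was -0.09. Gpr83, a receptor gene of Treg cells, had 194 ± 63.3 and 270.3 ± 34.7 CPM (SD, n = 3 each), with a log2 difference of -0.53 and a limma adjusted p of 0.914, and it was called lower with the replicate block (adjusted p = 0.0309). The summed level of 4 Y-linked genes was 116, 0.480 and 199 CPM in libraries labelled MAZR-cKO 1, 2 and 3, and 217, 164 and 276 CPM in those labelled WT 1, 2 and 3. Xist, the X-linked RNA of female cells, had 1145, 1552 and 605 CPM in MAZR-cKO 1, 2 and 3, and 561, 774 and 355 CPM in WT 1, 2 and 3. Library MAZR-cKO 2 had almost no Y-linked transcripts, while the other libraries of both labels held Y-linked transcripts and Xist. The libraries labelled MAZR-cKO thus differed in sex make-up, so they do not differ by technical variation alone. The Y-linked sum was lower and Xist higher under the label MAZR-cKO in all 3 pairs, and Xist was called higher with the replicate block (log2 difference 0.93, limma adjusted p = 1.0e-05, against 0.914 without the block). Sex-linked transcripts thus moved with the label, and the labels used here give no sex. Their part in the results was not tested, while values without each library are given below where they differ.

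None of the 10 genes was called. The background is small: limma called 5 of 12040 genes (0.0415%), edgeR 6 (0.0498%) and DESeq2 34 (0.282%), and none of these 3 tools called a member. At an unadjusted p under 0.05 limma had 0 of the 10, where 5.25% of all genes fell under that limit. edgeR and DESeq2 had 1 each, Cd4, which was higher. Of all 12040 genes, edgeR had 358 higher and 272 lower under that limit, and DESeq2 had 232 and 197. Mean levels under the label MAZR-cKO lay between 0.90 and 1.11 times those under the label WT. With 3 libraries against 3, the exact two-sided permutation test of a single gene cannot go below p = 0.1, so it cannot reach 0.05 here.

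**Figure D1:**
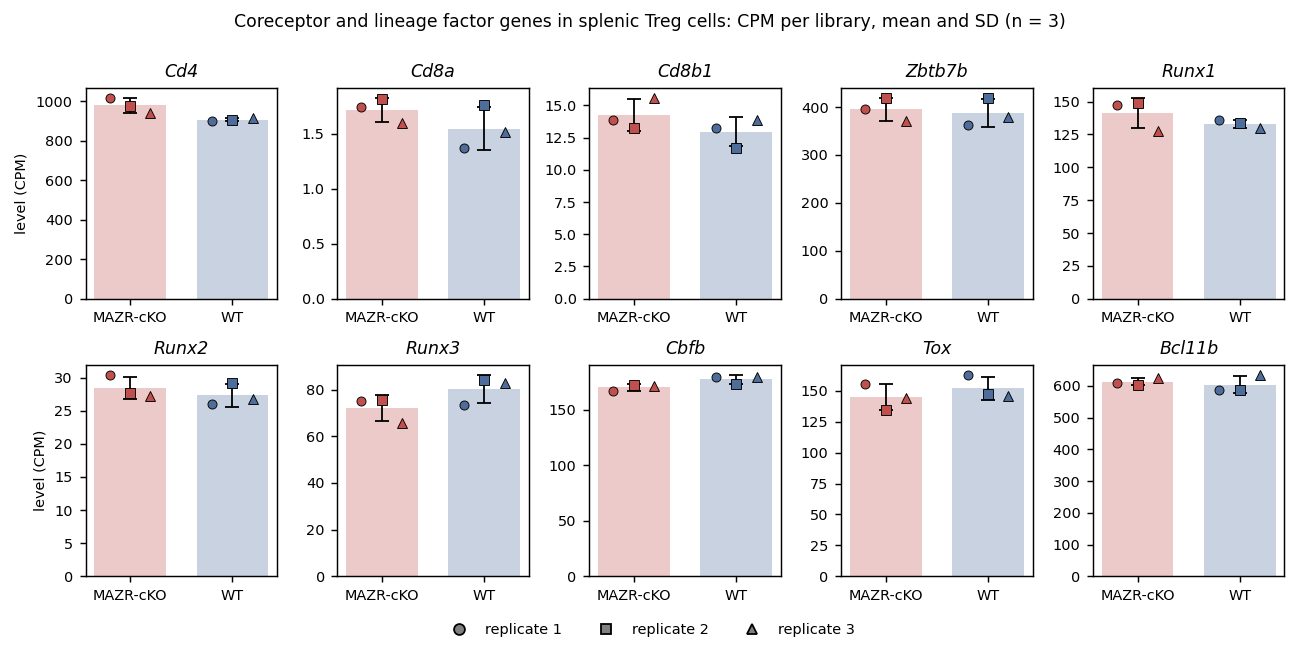
Level of each gene in CPM (vertical axis, from 0) in the 3 libraries labelled MAZR-cKO (left, red) and the 3 labelled WT (right, blue). Bars are means, error bars SD, and point shapes mark the replicate number. Cd4 and Cbfb are the 2 genes whose groups do not overlap.

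Cd4, the coreceptor that reads MHC class II, had 1019, 977 and 942 CPM in the MAZR-cKO-labelled libraries 1, 2 and 3, and 901, 905 and 914 CPM in those labelled WT 1, 2 and 3. Every library labelled MAZR-cKO was above every one labelled WT, with 27.1 CPM between the nearest of them. The means were 979 ± 38.6 and 907 ± 7.03 CPM (SD, n = 3 each), a ratio of 1.08. The log2 difference was 0.11 (SE 0.05, 95% interval -0.01 to 0.23, limma adjusted p = 0.914). With the replicate block the 95% interval was 0.006 to 0.21 and the limma adjusted p was 0.441. Such separation upwards occurred in 5% of all tested genes, and Cd4 was the only member with it. Between libraries of the same number the log2 difference was 0.18, 0.11 and 0.04.

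Cd8a encodes the alpha chain of CD8, which binds Lck, and Cd8b1 the beta chain, which pairs with alpha on conventional CD8 T cells. Cd8a had 1.74, 1.81 and 1.60 CPM in the MAZR-cKO-labelled libraries 1, 2 and 3, against 1.37, 1.76 and 1.51 CPM in those labelled WT 1, 2 and 3. These values overlap and rest on 28, 34 and 46 reads under the label MAZR-cKO, and on 27, 32 and 27 reads under WT. For the library labelled WT 1 the exact 95% Poisson interval of its 27 reads runs from 0.904 to 2.00 CPM, for counting error only, and it includes the values of the 5 other libraries. The log2 difference was 0.12 (SE 0.18, limma adjusted p = 0.938), with a 95% interval of -0.28 to 0.52, which spans ratios of 0.824 to 1.43 on the CPM + 0.5 scale. Cd8a is the member for which these libraries limit a difference least.

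Cd8b1 had 13.9, 13.3 and 15.6 CPM in the MAZR-cKO-labelled libraries 1, 2 and 3, and 13.3, 11.7 and 13.9 CPM in those labelled WT 1, 2 and 3. The groups overlap, although within each number the library labelled MAZR-cKO was the higher one. The log2 difference was 0.13 (SE 0.11, 95% interval -0.11 to 0.37, limma adjusted p = 0.922). Cd4, Cd8a and Cd8b1 were the members that were higher in all 3 pairs, a pattern that 12.9% of all tested genes showed. Cd8a and Cd8b1 lie next to each other on chromosome 6, at 71373427 to 71379173 and 71322788 to 71337494 (mm10), 35.9 kb apart on the plus strand, and Cd4 lies on the minus strand of the same chromosome from 124864692 to 124888221.

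The 2 CD8 chains did not stand at the same level. Per kilobase of exon, Cd8b1 exceeded Cd8a 20.5 ± 3.13 times in the MAZR-cKO-labelled libraries and 20.9 ± 3.97 times in those labelled WT (SD, n = 3 each). The ratio ran from 18.0 to 24.0 under MAZR-cKO and from 16.3 to 23.7 under WT, so the groups overlap. Cd4 was in turn 25.4 ± 2.81 and 25.9 ± 2.26 times as high as Cd8b1 per kilobase, and 516 ± 25.5 and 535 ± 64.5 times as high as Cd8a. With the longest coding transcript as the length, Cd8b1 still exceeded Cd8a 17.6 and 17.9 times on average. No overlapping gene model is annotated at Cd4, Cd8a or Cd8b1.

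Other cells that carry CD8 could add to these reads. Of 16 genes of CD8 lineage and cytotoxic cells, 14 were tested and 0 were at 0, with a summed level of 347 to 427 CPM in libraries labelled MAZR-cKO and of 437 to 513 CPM in those labelled WT. Itgae, an integrin that Treg cells also express, was at 169 and 212 CPM on average, while Gzmk and Xcl1 stayed under the filter. The CD8-bearing class of dendritic cells is defined by Xcr1 and Clec9a, whose means were 0.132 and 0.237 CPM under the label MAZR-cKO and 0.0542 and 0.228 CPM under WT. Of 12 dendritic cell markers 5 were tested, with a summed level of 76.9 to 83.3 CPM against 75.1 to 93.9 CPM. Most of that sum came from 1 gene, Bst2, at 55.7 and 63.1 CPM on average under the labels MAZR-cKO and WT. The median log2 difference of the 5 was 0.09. B cell markers, 9 of 9 tested, summed to 48.9 to 89.3 CPM under MAZR-cKO and 55.0 to 74.0 CPM under WT. Their median log2 difference was 0.35, with 6 of the 9 above 0. Monocyte and macrophage markers, 10 of 12 tested, summed to 70.3 to 202 CPM and 102 to 171 CPM, with a median of -0.04. Markers of NK, NKT and gamma-delta T cells, 8 of 9 tested, summed to 36.3 to 51.8 CPM and 32.4 to 41.8 CPM, with a median of 0.14. Trdc, of that list, had 11.4 ± 0.738 and 8.64 ± 0.462 CPM (SD, n = 3 each) with no overlap. Such upward separation occurred in 5% of tested genes. The log2 difference of Trdc was 0.38, at a limma adjusted p of 0.725, or 0.234 with the replicate block. In that list 6 log2 differences were above 0, and the 2 below were those of the gamma chain genes Tcrg-C1 and Tcrg-C2. Tcrg-C1 had 2.29 ± 0.880 and 3.41 ± 1.06 CPM, and Tcrg-C2 2.24 ± 0.748 and 2.68 ± 0.298 CPM (SD, n = 3 each). Their log2 differences were -0.49 and -0.25, so the gamma-delta T cell genes did not move in 1 direction. Red cell and platelet markers, 7 of 9 tested, summed to 15.1 to 30.01 CPM against 20.5 to 56.3 CPM, with a median log2 difference of -0.52. Of these the haemoglobin gene Hbb-bs had 7.12 ± 2.52 and 15.1 ± 8.61 CPM (SD, n = 3 each), with a log2 difference of -0.93 and a limma adjusted p of 0.914, and it was called lower with the replicate block (adjusted p = 0.0206). None of the marker lists had a gene at 0 in all libraries, and the part of such cells in the coreceptor levels was not tested. In such bulk libraries fewer cells of a type and less RNA per cell cannot be told apart.

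Zbtb7b, the gene for ThPOK, had 396, 418 and 371 CPM in the MAZR-cKO-labelled libraries 1, 2 and 3. Those labelled WT 1, 2 and 3 had 362, 419.7 and 380.1 CPM. The groups overlap almost entirely, and replicate 2 was the highest of both. Means were 395 ± 23.4 and 387 ± 29.5 CPM (SD, n = 3 each), a log2 difference of 0.03 (SE 0.07, 95% interval -0.12 to 0.18, limma adjusted p = 0.968). The sign turned without the library labelled MAZR-cKO 2 or WT 1, to -0.011 and -0.017. Zbtb7b spans chromosome 3 from 89377644 to 89394776 on the minus strand, and an antisense model with overlapping exons, Gm15417, averaged 3.14 CPM.

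Runx3, the Runx factor of the CD8 lineage, had 75.3, 75.7 and 65.8 CPM in the MAZR-cKO-labelled libraries 1, 2 and 3, and 73.2, 84.2 and 83.0 CPM in those labelled WT 1, 2 and 3. The library labelled WT 1 lies among those labelled MAZR-cKO, and the groups overlap. Its means, 72.2 ± 5.57 and 80.1 ± 6.02 CPM (SD, n = 3 each), gave the lowest ratio of the members, 0.901. The log2 difference was -0.15 (SE 0.08, 95% interval -0.32 to 0.02, limma adjusted p = 0.914). With the replicate block the 95% interval was -0.29 to -0.005 and the limma adjusted p was 0.453. Within pairs the log2 difference was 0.04, -0.15 and -0.33, so pair 1 differed in sign from the others. Leaving out 1 library gave values from -0.21, without WT 1, to -0.08, without MAZR-cKO 3.

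Runx1, which partners Foxp3 in Treg cells, had 147, 149 and 128 CPM in the MAZR-cKO-labelled libraries 1, 2 and 3, and 136, 134 and 129.9 CPM in those labelled WT 1, 2 and 3. The third library labelled MAZR-cKO was the lowest of all 6, and the other 2 were the highest. The log2 difference was 0.08 (SE 0.06, 95% interval -0.06 to 0.23, limma adjusted p = 0.921). It was 0.15 without the library labelled MAZR-cKO 3, at an unadjusted p of 0.0118 and an adjusted p of 0.441 in limma, while the other alternatives gave adjusted p-values from 0.533 to 1.00. Runx2, best known from bone and expressed at a lower level in T cells, had 30.4, 27.6 and 27.3 CPM under the label MAZR-cKO and 26.0, 29.3 and 26.9 CPM under WT. Its groups overlap, with a log2 difference of 0.05 (SE 0.08, limma adjusted p = 0.937). Supt3, on the opposite strand within Runx2, averaged 11.4 CPM and shares no annotated exon bases with it.

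Cbfb encodes the common partner that lets Runx proteins bind DNA firmly. It had 167, 173 and 172 CPM in the MAZR-cKO-labelled libraries 1, 2 and 3, and 179.8, 173 and 179 CPM in those labelled WT 1, 2 and 3. The libraries labelled MAZR-cKO all lay below those labelled WT, but only by 0.376 CPM at the nearest. Means were 170.4 ± 3.04 and 177 ± 3.88 CPM (SD, n = 3 each), with a log2 difference of -0.06 (SE 0.04, 95% interval -0.15 to 0.04, limma adjusted p = 0.918). Downward separation occurred in 5.74% of tested genes, and Cbfb was the 1 member with it. Cbfb and Tox were lower in all 3 pairs, as were 19.2% of tested genes.

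The make-up of the Runx family was described by shares. Per kilobase of exon, Runx3 made up 48.9, 49.4 and 49.0% of the summed level of Runx1, Runx2 and Runx3 in the MAZR-cKO-labelled libraries 1, 2 and 3, and 50.7, 53.9 and 54.5% in those labelled WT 1, 2 and 3. Runx1 made up 39.9, 40.4 and 39.6% under the label MAZR-cKO and 39.1, 35.5 and 35.5% under WT, and Runx2 10.2 to 11.5% and 9.99 to 10.6%. The shares of Runx3 and Runx1 did not overlap between the groups, although the library labelled WT 1 was within 2 percentage points of those labelled MAZR-cKO. The shares depend on each other, since a higher share of Runx1 leaves less for Runx3, and they use the same Runx3 values as the ratios below. The CPM of Runx1 and that of Runx3 each overlap between the groups. No test was made of these shares, and how often such shares separate over all genes was not computed. With the longest coding transcript as the length Runx1, not Runx3, was the largest member, at 51.2 ± 0.471% and 47.8 ± 2.21%, and Runx3 had 39.5 ± 0.136% and 43.3 ± 2.08% (SD, n = 3 each). Cbfb stood at 1.67 ± 0.146 and 1.69 ± 0.1003 times the summed Runx level per kilobase of exon, with overlap.

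**Figure D2:**
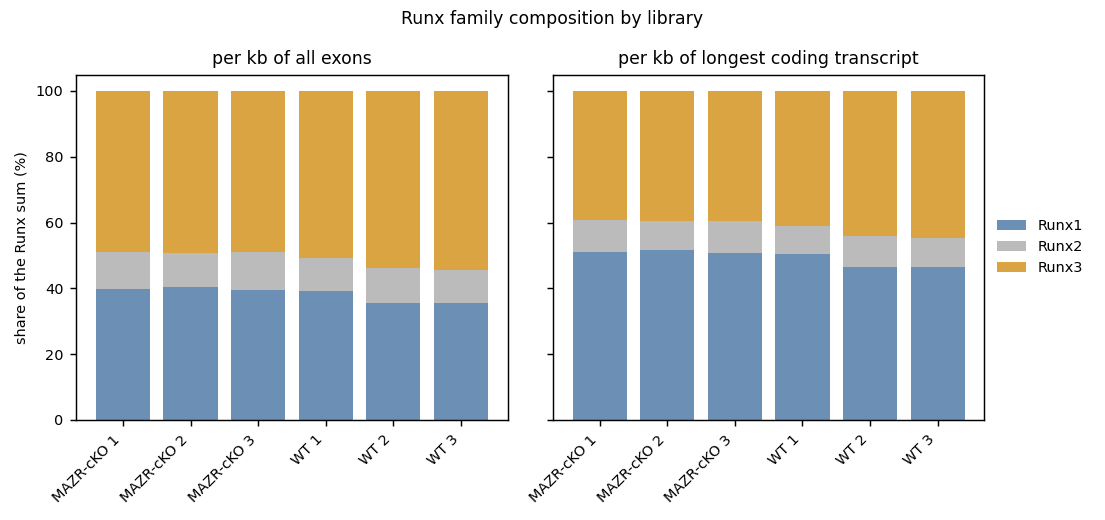
Share of Runx1, Runx2 and Runx3 in their summed level per kilobase (vertical axis, percent) in each library labelled MAZR-cKO and WT, with the length taken from all exons (left) and from the longest coding transcript (right). The Runx3 share is 48.9 to 49.4% in the MAZR-cKO-labelled libraries and 50.7 to 54.5% in those labelled WT on the left, and the order of Runx1 and Runx3 depends on the length used.

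The balance of the CD4 factor to the CD8 factor was described by the ratio of Zbtb7b to Runx3 per kilobase of exon. It was 4.71, 4.94 and 5.05 in the MAZR-cKO-labelled libraries 1, 2 and 3, and 4.42, 4.46 and 4.10 in those labelled WT 1, 2 and 3. The groups do not overlap, with means of 4.90 ± 0.171 and 4.33 ± 0.197 (SD, n = 3 each). Of the 9 other members, 5 had a ratio of CPM to that of Runx3 that was higher without overlap under the label MAZR-cKO, namely Cd4, Cd8a, Zbtb7b, Runx1 and Runx2. The same held for 13.9% of the 12039 other tested genes, and all of these ratios share the Runx3 values. This ratio was chosen with the values known, and no test was made of it.

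Tox encodes a nuclear factor needed in the mouse thymus for CD4 lineage cells to form. It had 156, 134 and 145 CPM in the MAZR-cKO-labelled libraries 1, 2 and 3, and 163, 147 and 146 CPM in those labelled WT 1, 2 and 3. The groups overlap, with a log2 difference of -0.07 (SE 0.07, 95% interval -0.22 to 0.08, limma adjusted p = 0.926). Bcl11b, which T cells need to commit to and keep their identity, had 609.5, 603 and 625 CPM under the label MAZR-cKO and 587, 588 and 633 CPM under WT. The third library was the highest of each group, and the log2 difference was 0.02 (SE 0.05, 95% interval -0.09 to 0.14, limma adjusted p = 0.964).

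**Figure D3:**
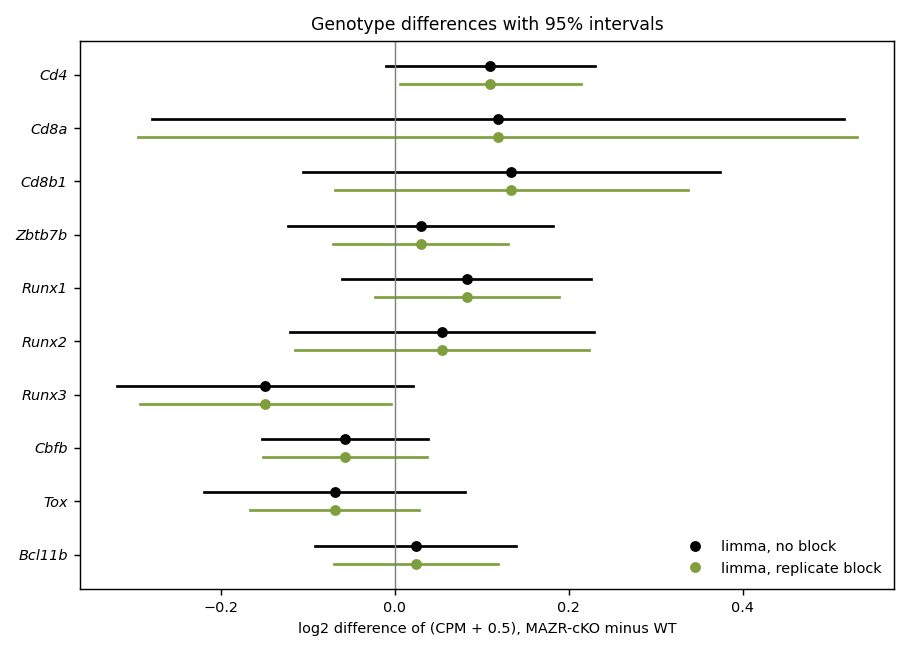
Log2 difference of CPM + 0.5, labelled MAZR-cKO minus labelled WT (horizontal axis), for each gene, with its 95% interval from limma without (black) and with (green) the replicate number as a block. All 10 intervals include 0 without the block. With it, those of Cd4 (0.006 to 0.21) and Runx3 (-0.29 to -0.005) narrowly exclude 0, at limma adjusted p of 0.441 and 0.453.

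With the replicate block limma called 46 genes (0.382%), again with no member among them. Cd4 was the 1 member that was higher at an unadjusted p under 0.05, at 0.0404, beside 3.98% of all genes, and Runx3 the 1 that was lower, at 0.0438 in the same limma fit, beside 6.66%. The adjusted p in limma was 0.441 for Cd4 and 0.453 for Runx3. In the fit without the block, 7 of the 10 log2 differences were above 0, with a median of 0.04, while 43.9% of all tested genes were above 0, with a median of -0.01.

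Per length, the members covered a wide range with the same order under both labels. Cd4 led at 243 ± 9.56 and 225 ± 1.74 CPM per kilobase of exon (SD, n = 3 each) in the MAZR-cKO-labelled libraries and WT, which is rank 86 and 94 among 12005 tested genes with an annotated length. Bcl11b followed at 75.5 ± 1.42 and 74.3 ± 3.27 CPM per kilobase, and Zbtb7b at 70.7 ± 4.18 and 69.3 ± 5.28. Bcl11b and Zbtb7b overlap between libraries of the same label, so their order is not settled, and every other pair of neighbours is separate. Below them came Cbfb at 49.0 and 51.0, Tox at 19.0 and 19.96, Runx3 at 14.4 and 16.02, and Runx1 at 11.8 and 11.1 CPM per kilobase on average. Cd8b1, at 9.61 and 8.73, stood above Runx2, at 3.22 and 3.10, and Cd8a was last at 0.472 ± 0.0305 and 0.425 ± 0.0536 CPM per kilobase, rank 11383 and 11437. With the longest coding transcript as the length, Zbtb7b stood above Bcl11b and Runx1 above Runx3.

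**Figure D4:**
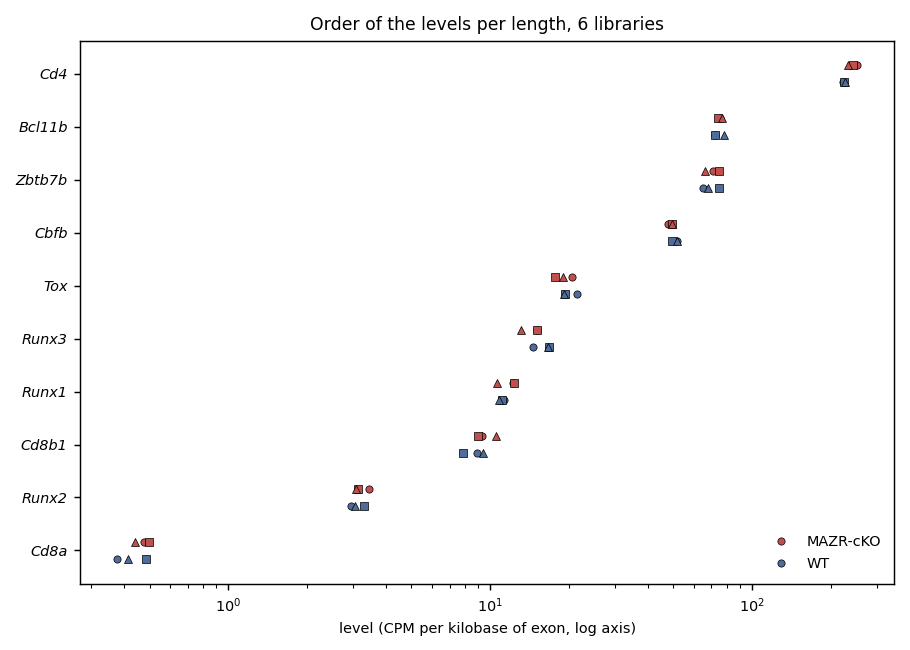
Level per kilobase of annotated exon (horizontal log axis, CPM per kilobase) of each gene in the 6 libraries, labelled MAZR-cKO above (red) and WT below (blue), with shapes for the replicate number. The means keep 1 order under both labels, from Cd4 at 243 and 225 CPM per kilobase on average to Cd8a at 0.472 and 0.425. Single libraries of Bcl11b and Zbtb7b overlap under both labels.

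The members also differed in how steady they were between libraries of 1 label. The pooled SD of log2(CPM + 0.5) within groups was 0.029 for Cbfb and 0.041 for Cd4, lower than for all but 2.56% and 7.57% of tested genes, and 0.048 for Bcl11b. The other 7 members lay between 0.086, for Runx2, and 0.12, for Cd8b1, near the median of 0.10 over all tested genes. These ranks are over genes of all levels. The SD of Cd8a rests on 27 to 46 reads per library and is lowered by the 0.5 added to its CPM. The genes closest in pattern over the 6 libraries were found by the root mean square difference of their centred log2(CPM + 0.5) among genes of similar spread. For Zbtb7b they were Tle4, Crebbp and Itpr3, at 0.016, 0.017 and 0.018 on the log2 scale, among 2916 candidates. For Cd4 they were Fam133b, Pigb and Hmg20b, at 0.022, 0.022 and 0.024 among 2620, and for Runx3 they were Fry, Fam110a and Myo3b, at 0.027, 0.039 and 0.042 among 2476.

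Related genes were taken from 6 lists with 90 genes in all, of which 85 were tested. limma called 1 of them, Patz1, which was higher, and 0 were lower. In all, 36 of the 85 had a log2 difference above 0, with a median of -0.02 beside -0.01 for all tested genes. Among 27 regulators of the lineage choice, Patz1 aside, 0 were called in either direction. Lef1, a partner of TCF-1 in T cell development, had 254 ± 4.22 and 277 ± 12.5 CPM, and Zbtb7a, the gene for the ThPOK relative LRF, 161 ± 10.3 and 174 ± 10.04 CPM in the MAZR-cKO-labelled libraries and WT (SD, n = 3 each). Smarca4, the chromatin remodeller known as BRG1, had 266 ± 4.08 and 279 ± 8.19 CPM. limma's adjusted p was 0.914 for each of these 3.

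None of the 14 tested Runx cofactors and relatives was called, with log2 differences of -0.20 to 0.10. Cdk6, a cell cycle kinase that can bind Runx1, had 91.9 ± 12.7 CPM under the label MAZR-cKO and 105 ± 10.5 CPM under WT, and the Groucho corepressor gene Tle3 336 ± 17.1 and 357 ± 9.83 CPM (SD, n = 3 each). Runx1t1 was listed at 0 in all 6 libraries. Of the Tox and Bcl11 relatives 3 of 4 were tested and 0 called, among them Bcl11a, known from B cells, at 2.51 ± 1.46 and 1.55 ± 0.390 CPM. Of 12 CD4 lineage effector genes 0 were called, with Icos, a costimulatory receptor, at 294 ± 23.1 and 324 ± 23.3 CPM, Tbx21, the gene for T-bet, at 12.7 ± 3.13 and 15.9 ± 2.80 CPM, and Cd40lg, the ligand with which CD4 T cells help B cells, at 20.9 ± 2.11 and 18.7 ± 0.557 CPM.

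Partners of the coreceptors in signalling were also without a call in 15 of 15, with 11 of their log2 differences below 0 and a median of -0.04. Cd3d, a chain of the T cell receptor complex, had the smallest p of them and stood at 354 ± 13.0 CPM in the MAZR-cKO-labelled libraries and 383 ± 12.6 CPM in those labelled WT (SD, n = 3 each), with a limma adjusted p of 0.914. The kinase gene Zap70 had 316 ± 9.38 and 335 ± 16.7 CPM, and the adaptor gene Lat 548 ± 36.1 and 590.3 ± 40.6 CPM.

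Among 14 tested CD8 lineage and cytotoxic genes 0 were called, and 8 were below 0, with a median of -0.08. Ctsw, which encodes cathepsin W of cytotoxic lymphocytes, had 47.9, 45.75 and 66.2 CPM in the MAZR-cKO-labelled libraries 1, 2 and 3, and 72.7, 65.0 and 77.3 CPM in those labelled WT 1, 2 and 3. The groups overlap, with a log2 difference of -0.44 (SE 0.13, limma adjusted p = 0.831), and with the replicate block it was called lower, at an adjusted p of 0.0234 in limma and 0.0427 in edgeR. With quantile normalization added to the block, chosen after seeing the data, limma's adjusted p was 0.0626. Fasl, the death ligand of cytotoxic cells, had 3.82 ± 0.740 and 5.44 ± 0.683 CPM (SD, n = 3 each) with no overlap. Such downward separation occurred in 5.74% of all tested genes, and Fasl was the 1 gene of this list without overlap. Crtam, an adhesion receptor of activated T cells, had 2.05 ± 0.675 and 3.37 ± 0.863 CPM. Nkg7, a granule membrane protein gene, had 18.9 ± 4.43 and 24.1 ± 2.79 CPM. The adjusted p of these last 3 was 0.914 in limma, while Eomes, a CD8 memory factor, stood the other way at 9.54 ± 1.76 and 7.54 ± 1.07 CPM.

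**Figure D5:**
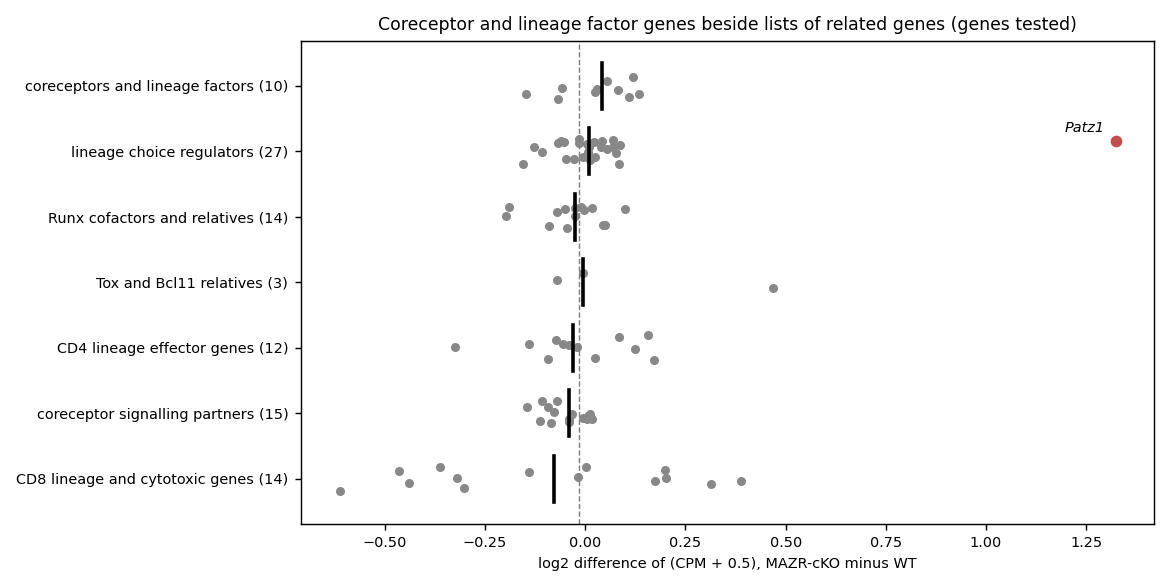
Log2 difference of CPM + 0.5, labelled MAZR-cKO minus labelled WT (horizontal axis), for each tested gene of the coreceptor and lineage factor genes and of 6 lists of related genes, with the number tested in brackets. Grey points are genes not called, the red point is Patz1, black bars are medians and the dashed line is the median of all tested genes, -0.01. Patz1, at 1.32, is the gene called by limma without the block.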

How the data were processed

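RNA-seq was deposited by the authors as CPM per gene for 6 libraries. The submitters' processing notes list STAR 2.5.2b, Subread 1.5.1, FastQC, edgeR and R 3.4 and the mm10 build, and strand mode and annotation release are not given in the sources used here. RNA was poly(A)-selected with a stranded TruSeq kit, per the labels' protocols. Every CPM value was a whole multiple of the smallest in its library (100% within 0.01 reads), so reads were recovered, 15481565 to 28184456 per library. The CPM scale was kept as deposited: its sum was 96.2 to 99.2% of the full scale. Members were matched by the deposited symbol, other genes by identifier to GENCODE M21 (45143 of 46078), which also gave coordinates and exon lengths. limma 3.58.1 (R 4.3.3, intensity trend) was fitted to log2(CPM + 0.5) of 12040 genes. edgeR 4.0.16 and DESeq2 1.42.0 on recovered reads, a replicate block, other pseudocounts, filters and normalization, and leaving out each library were alternatives. Fits were tested first on simulated data without a pair effect, so that test does not bear on the choice of the block. A fold on this scale understates changes of low genes. The members and lists were chosen with earlier results of these data known. Named beside the members were up to 4 genes of smallest p in each list and the 3 genes of closest pattern to Cd4, Zbtb7b and Runx3. Eomes, Itgae, Gpr83, Hbb-bs, Bst2, Trdc, Tcrg-C1, Tcrg-C2 and the genes given as low or at 0 were named after their values were seen.

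After the genotype means were subtracted, same-numbered libraries correlated across genes at 0.40, 0.38 and 0.38, above the limit of 0.1, and share a code in the labels, so the numbers were taken to pair them. Library pairs differed by a chi-square of 5.39 to 19.0 per degree of freedom, so none was a copy. Intervals on reads cover counting error only.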

Additional observations from a re-analysis of the deposited data

How the results depend on the processing

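No member was called in any of the 18 alternatives run, and 9 of the 10 kept the sign of their log2 difference in all 18. The sign of Zbtb7b turned without MAZR-cKO replicate 2 (-0.011) and without WT replicate 1 (-0.017), and leaving out 1 library gave it -0.017 to 0.089. The count of genes called, 5, was 2 with at least 1 CPM in all 6 libraries, 9 with robust moderation, 34 with DESeq2, 46 with the replicate block, 37 with edgeR and the replicate block, and 23 with quantile normalization and the replicate block, an alternative chosen after seeing the data. Leaving out 1 library gave 4 to 14 genes, the 14 without MAZR-cKO replicate 3. Pathway genes called, 1, became 2 with the replicate block in limma and in edgeR, Patz1 and Ctsw. The block changed no call of a member, and the cause of these changes was not tested. Scalings moved the median of all genes by no more than 0.02 on the log2 scale. Depth limits Cd8a, at 27 to 46 reads per library, more than the other members.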
